A study of Homo sapiens with 10 samples.

Results

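Chromosomes 13 and 20 were examined in windows of 0.25 Mb by RNA-seq in 2 human lines grown for 3 days, the bladder cancer line T24, sensitive to cisplatin, and T24R2, a resistant line derived from it, each in 5 replicates. The windows were laid over hg38, each gene was placed by the midpoint between its lowest start and highest end, and the deposited fragment counts were summed per window and library. A window was kept where the 10 libraries together held at least 100 counts. This left 150 windows on chromosome 13 and 154 on chromosome 20, 304 of the 5907 windows kept by the same count minimum on chromosomes 1 to 22 and X. Of the 352 windows of chromosome 13 that hold a gene, 58 had fewer counts than the minimum and 144 had none, and of the 242 of chromosome 20, 36 had too few and 52 had none. On chromosome 13 the kept window with the fewest counts held 126, at a log2 ratio of T24R2 to T24 of 3.26, and the fullest window left out held 99, at 2.23. On chromosome 20 the corresponding windows held 122 counts, at -5.57 with T24R2 set to a floor of 3 counts over its libraries, and 70 counts, at -2.44.

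T24R2 was made from T24 by repeated exposure to cisplatin, a platinum drug that crosslinks DNA, in another laboratory. Both lines grew in RPMI with fetal bovine serum and penicillin and streptomycin according to the labels, whereas the methods keep T24R2 in medium with cisplatin, so that the line and exposure to the drug cannot be told apart. Nothing says that the 5 replicates of a line came from separate cultures, so that their spread, and any p-value, may measure only technical variation. Total counts were 9257843 to 10247941 in T24 and 9591379 to 10840954 in T24R2. KRT7, KRT8 and KRT18, keratins of simple epithelium, were present in both lines at 691 to 2242 CPM (counts scaled to the library total after TMM adjustment, explained below), while KRT19 had 267 CPM in T24 and 0.0887 CPM in T24R2. The urothelial genes UPK1B and UPK3A, the basal keratin KRT5 and the epithelial cadherin CDH1 were at or near 0 in both lines, at 0.233 CPM or less. Other genes of the same list were present in T24 and lower in T24R2, UPK2 at 9.90 and 2.74 CPM, GATA3, a transcription factor of urothelium, at 22.1 and 0.214 CPM, and EPCAM at 4.45 and 0.130 CPM. The mesenchymal gene VIM had 482 CPM in T24 and 3963 in T24R2. The part of these differences in the window values was not tested.

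A chromosome carries its genes in a fixed order, and neighbouring genes share the DNA around them, its number of copies and often its chromatin state. The sum of RNA over adjacent genes is therefore used to look for stretches whose genes differ together between cell lines. Chromosome 13 carries its protein-coding genes on the long arm only, among them the tumour suppressor gene RB1, the repair gene BRCA2 and, near the end of the arm, the paired basement membrane collagen genes COL4A1 and COL4A2. Chromosome 20 carries genes of mitosis such as AURKA and TPX2, the signalling gene GNAS and the laminin gene LAMA5, and gains of its long arm are known from many epithelial cancers. These files measure RNA, and copies of DNA were not measured. In bulk RNA, less RNA per cell and fewer cells with that RNA cannot be told apart.

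The promoters of 6 genes on either side of the largest steps are shown, so that their starts can be set side by side, and were taken from RefSeq (GRCh38.p14), whose starts can differ from those counted here, as the 150 bases before the gene start, or the 126 bases between the starts of COL4A1 and COL4A2, which are read in opposite directions from the same stretch. EFNB2 lies before the distal step of chromosome 13, IRS2, COL4A1, COL4A2 and LAMP1 lie after it, and RALGAPB lies just after the first step of chromosome 20. Capitals mark 3 short motifs found often in promoters, each searched on both strands. The GC box, to which factors of the SP family bind, was searched as GGGCGG. The box bound by nuclear factor Y was searched as the letters CCAAT. The TATA box, where assembly of the polymerase begins at some promoters, was searched as TATAAA, and matches that touch each other run together. Each is printed 5′ to 3′ on the strand of the gene, COL4A2 for the shared stretch.
EFNB2, chr13:106535663-106535812, minus strand: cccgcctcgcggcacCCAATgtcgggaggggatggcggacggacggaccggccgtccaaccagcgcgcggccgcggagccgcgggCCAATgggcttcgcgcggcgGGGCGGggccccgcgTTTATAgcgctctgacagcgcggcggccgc
IRS2, chr13:109786584-109786733, minus strand: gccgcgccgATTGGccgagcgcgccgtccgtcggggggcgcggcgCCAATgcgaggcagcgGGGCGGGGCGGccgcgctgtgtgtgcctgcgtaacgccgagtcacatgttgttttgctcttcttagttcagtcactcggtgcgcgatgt
COL4A1 and COL4A2, chr13:110307158-110307283, plus strand: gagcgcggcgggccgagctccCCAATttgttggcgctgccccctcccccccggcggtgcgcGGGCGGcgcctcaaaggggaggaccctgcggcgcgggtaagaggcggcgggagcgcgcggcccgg
LAMP1, chr13:113297089-113297238, plus strand: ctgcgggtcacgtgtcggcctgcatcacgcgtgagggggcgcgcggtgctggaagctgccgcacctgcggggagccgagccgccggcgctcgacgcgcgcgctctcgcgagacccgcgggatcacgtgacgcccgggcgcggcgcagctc
RALGAPB, chr20:38472693-38472842, plus strand: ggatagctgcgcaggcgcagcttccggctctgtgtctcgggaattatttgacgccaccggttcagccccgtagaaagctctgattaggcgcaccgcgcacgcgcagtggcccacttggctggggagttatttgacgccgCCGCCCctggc
The shared stretch of the collagen genes holds 1 GC box and 1 CCAAT box at 80.2% G and C, and that of LAMP1 holds none of the 3 motifs at 78.0% G and C. EFNB2, on the other side of the step, holds 1 GC box, 2 CCAAT boxes and 1 TATA box. Among all 27195 promoters of the RefSeq table, 36.8% hold a GC box, 24.4% a CCAAT box and 7.06% a TATA box in windows of 150 bases. Of the 34 tested genes of the distal stretch of chromosome 13, 26 had a promoter in the table, and 57.7% of these hold a GC box, 23.1% a CCAAT box and 0.0% a TATA box. The middle stretch of the chromosome gave 52.6%, 23.7% and 2.63% of 114 promoters. A match is a description of letters, not a binding site.

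Both chromosomes lay below the rest of the genome in T24R2. The windows were scaled with TMM factors (a scaling of library sizes that sets aside the most changed genes), and the log2 ratio of the T24R2 mean to the T24 mean was taken for each. The median window log2 ratio was -0.41 on chromosome 13 and -0.47 on chromosome 20, against 0.03 over the 5603 windows of the other chromosomes, which had their middle 50% between -0.50 and 0.48. On chromosome 13, 112 of 150 windows (74.7%) were below 0, and on chromosome 20, 117 of 154 (76.0%), against 48.2% elsewhere. Chromosome 11 was lower still, at -0.65, and chromosome 10 came next above the pair, at -0.28. Without TMM the median of all tested genes moved from 0.01 to 0.18, and the medians of chromosomes 13 and 20 to -0.25 and -0.30. These chromosomes were chosen for this contrast, so the values are a description and carry no test.

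**Figure D1:**
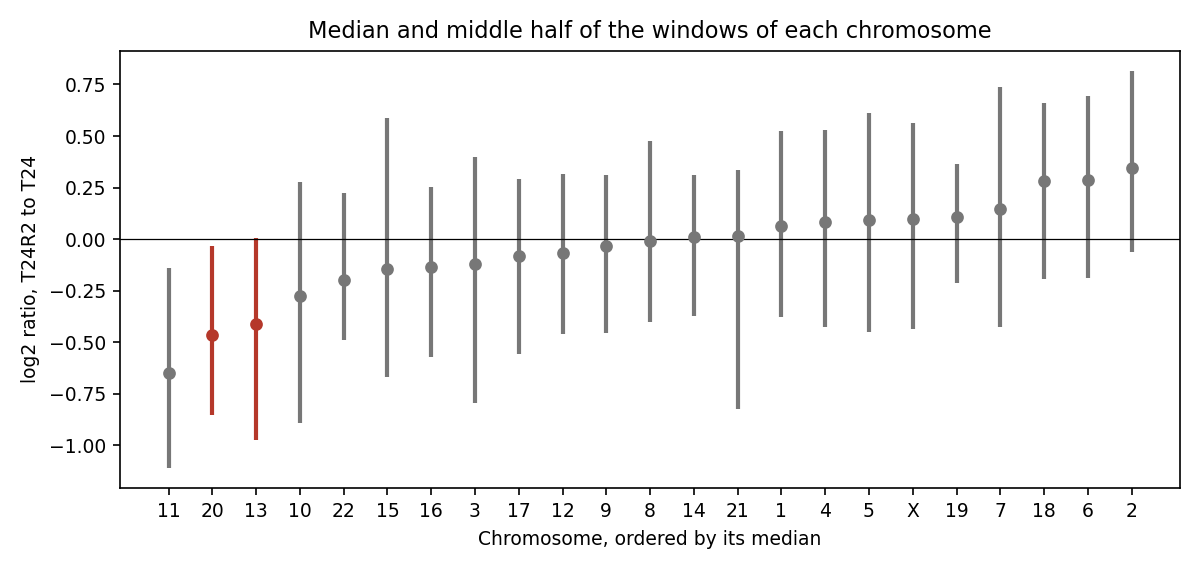
Median (points) and middle 50% (bars) of the window log2 ratio of T24R2 to T24 on each chromosome, ordered from the lowest median. Chromosomes 20 and 13 (red) have medians of -0.47 and -0.41 and stand next to chromosome 11 at -0.65.

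In each library the windows were then set against the T24 mean. Along chromosome 13, the search for steps divided the windows into 3 segments. The first, from 19.5 to 41.5 Mb with 52 windows, had a median of -0.56, which is 67.7% of T24. The second, from 41.5 to 108.25 Mb with 83 windows, had a median of -0.15, or 90.3% of T24. The third, from 109.25 to 114.5 Mb at the end of the long arm with 15 windows, had a median of -1.97, or 25.5% of T24. The search minimised absolute deviations about segment medians with at least 8 windows in a segment, and the number of segments was the one with the lowest Bayesian information criterion, -82.6 for 3 segments against -40.7 for 1, -79.3 for 2 and -77.3 for 4.

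**Figure D2:**
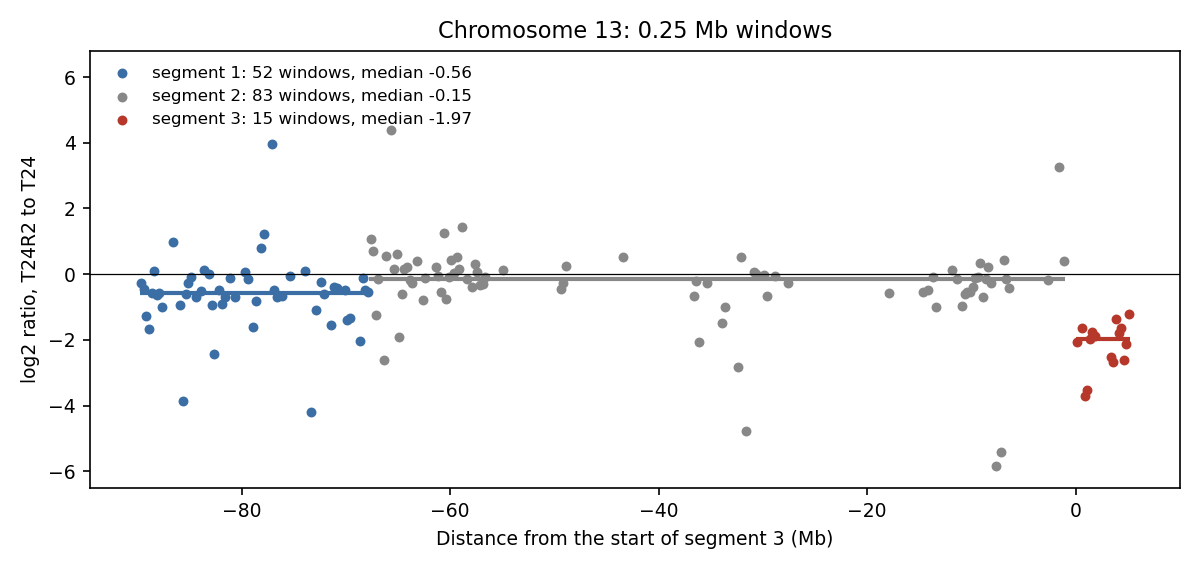
Log2 ratio of T24R2 to T24 in the 150 kept windows of chromosome 13 (points) against the distance from the start of the third segment in Mb, with segment medians as lines. All 15 windows of the third segment (red) lie between -3.70 and -1.22, below the line of the middle segment (grey) at -0.15.

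The distal segment of chromosome 13 stood apart from both of the others in every T24R2 library. Its median was -2.0, -2.06, -1.91, -1.94 and -1.91 in replicates 1 to 5 of T24R2 (mean -1.96 ± 0.06, SD, n = 5), and -0.02 to 0.02 in the 5 T24 libraries. The lines did not overlap, as in every other segment of both chromosomes, and the segments were found from this same contrast. The step from the middle to the distal segment was -1.93 to -1.74 in single T24R2 libraries. The summed level of the segment was 3416 CPM in T24 and 680.5 CPM in T24R2, a log2 ratio of -2.33. In all 15 windows the 5 T24R2 values lay below the 5 T24 values without overlap, a pattern that 36.4% of all windows of the genome had in this direction and 34.8% in the other. Among 5449 overlapping runs of 15 consecutive windows on the other chromosomes, the lowest median was -1.51, on chromosome 11 from 113250001 to 120250000.

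The windows of the segment differed among themselves, and their order along the chromosome was no gradient. The window with COL4A1 had the lowest ratio, -3.70, from 444 ± 25.6 to 34.0 ± 2.30 CPM, and its neighbour with COL4A2 had -3.52, from 1027 ± 30.9 to 89.4 ± 4.73 CPM (SD, n = 5 each). The 2 windows before them, with LINC03061 and IRS2, had -2.05 and -1.64. The last window of the chromosome, with CDC16, UPF3A and CHAMP1, had the highest ratio, -1.22, from 161 ± 4.70 to 69.2 ± 3.29 CPM. Between these ends, windows near -2.6 (ATP11A at -2.66 and GAS6 at -2.60) alternated with windows near -1.7, such as -1.76 with ANKRD10, -1.78 with LAMP1 and -1.62 with TFDP1. In 6 of the windows 99.3% to 100% of the counts came from 1 gene, so that a window value is often a gene value.

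The step itself fell where few genes were counted. The last kept window before it, from 108000001 to 108250000, holds LIG4 and ABHD13 and had 37.2, 36.2, 39.2, 37.9 and 38.0 CPM in T24 and 42.9, 48.7, 50.1, 55.3 and 52.2 CPM in T24R2, a log2 ratio of 0.40. The first kept window after it, from 109250001 to 109500000, had 101, 91.8, 93.4, 92.2 and 93.3 CPM in T24 and 21.3, 21.7, 24.8, 21.3 and 25.2 CPM in T24R2. All T24R2 libraries were thus above all T24 libraries on one side and below them on the other. Over the genome 34.8% of windows were higher and 36.4% lower in this way. LIG4 and ABHD13 had log2 fold changes of 0.47 and 0.34 and were not called. The 1000 kb in between held no kept window. TNFSF13B, which encodes a B-cell survival factor, and the myosin gene MYO16 lie there with 52 and 29 counts over the 10 libraries. MYO16-AS1 (109163902 to 109201483), a noncoding gene antisense to MYO16, had 3 counts or fewer in each T24 library and up to 22 in T24R2, and was called higher (log2 fold change 2.92 ± 0.49, SE).

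Genes were compared with edgeR over all 16181 genes that passed its filter on low counts and were called at an adjusted p under 0.05 with a log2 fold change beyond 0.5 in either direction. Over the genome 26.5% of tested genes were called lower in T24R2 and 24.9% higher, or 4282 and 4027 genes (3431 and 5206 without TMM). Chromosome 13 had 113 lower and 32 higher of 273 tested genes (92 and 43 without TMM), and chromosome 20 had 199 and 45 of 436 (157 and 69 without TMM). Of the 121 genes of the distal segment, 34 were tested, of which 31 were called lower, 2 higher and 1 neither. The median log2 fold change of the 34 was -1.91, against 0.01 over all tested genes. Since the segment was found from the same contrast, the counts only describe it. Of the 27 tested genes with at least 10 CPM in T24, all 27 were called lower, from -4.42 for RAB20 to -0.52 for CARS2. This cut used only T24, the line that the ratio is taken against, and so favours lower genes. The 7 with less than 10 CPM included both higher genes, GRTP1 at 0.89 and ADPRHL1 at 2.11, each with means under 4 CPM in both lines, and TMEM255B at 0.18, which was not called.

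**Figure D3:**
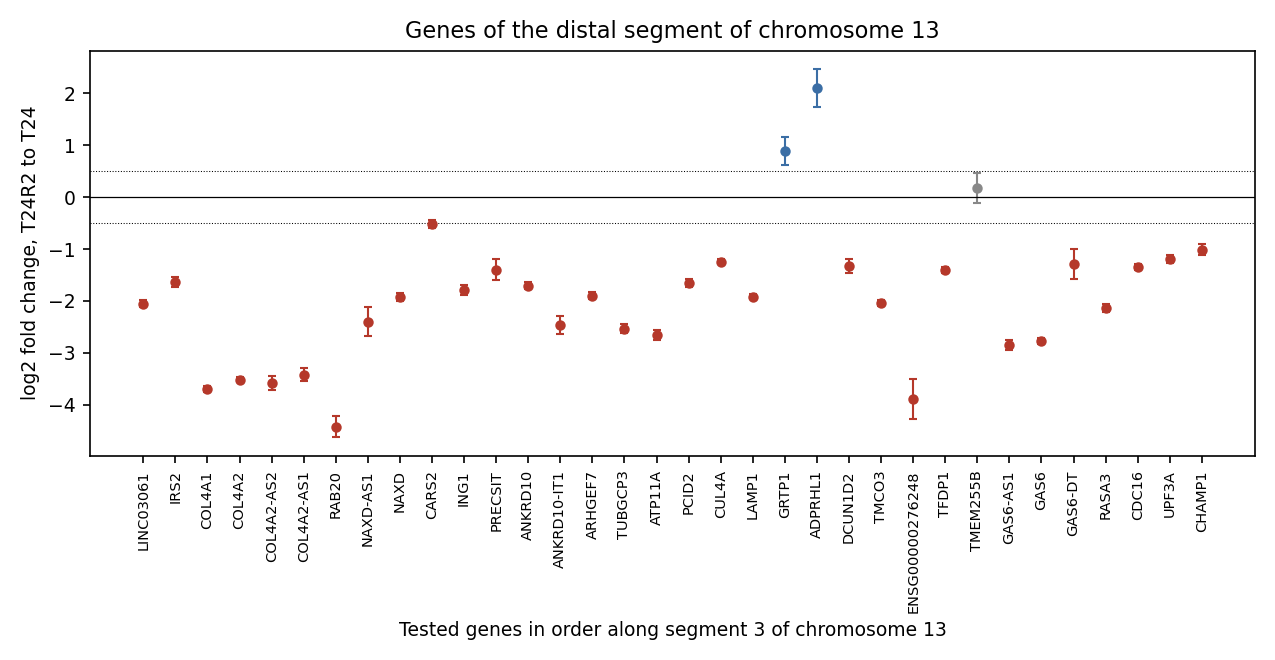
Log2 fold change (points) and SE (bars) of the 34 tested genes of the distal segment of chromosome 13 in their order along the chromosome, with dotted lines at the fold change needed for a call. The 31 lower genes (red) lie between -4.42 and -0.52, with GRTP1 and ADPRHL1 (blue) above 0 and TMEM255B (grey) not called.

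COL4A1 (ENSG00000187498.16, minus strand, 110148963 to 110307157) and COL4A2 (ENSG00000134871.19, plus strand, 110305812 to 110513209) encode the chains of the most common type IV collagen of basement membranes. COL4A1 had 405, 444, 436, 472 and 461 CPM in T24 and 37.5, 33.4, 31.3, 34.4 and 33.5 CPM in T24R2. COL4A2 had 1000, 1012, 939.5, 1008 and 1005 CPM in T24 and 92.6, 89.4, 81.6, 82.2 and 86.9 CPM in T24R2. No T24R2 library of either gene came near the T24 range, and the log2 fold changes were -3.70 ± 0.06 and -3.52 ± 0.05 (SE). Of all windows, 36.4% were lower without overlap, and the share among genes is not given. COL4A2-AS1 and COL4A2-AS2, annotated antisense to COL4A2, had -3.42 and -3.58. The kit is not described as keeping the strand, so their reads cannot be told apart from those of COL4A2, nor those of other antisense genes from their partners.

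The genes on either side of the collagen pair differed by different amounts, RAB20 by more and the others named here by less. LINC03061 (109269634 to 109278512), a noncoding gene and the first after the step, had the values of its window, given above, and a log2 fold change of -2.05 ± 0.07 (SE). IRS2 (ENSG00000185950.9, 109752695 to 109786583), an adaptor of the insulin receptor, had 26.8, 30.2, 32.1, 33.8 and 30.4 CPM in T24 and 10.4, 9.62, 8.06, 11.1 and 10.1 CPM in T24R2, -1.63 ± 0.10. RAB20 (110523066 to 110561722), a small GTPase of vesicle traffic, went from 16.9 ± 1.73 to 0.764 ± 0.376 CPM (SD, n = 5 each). CARS2, the mitochondrial cysteinyl-tRNA synthetase, had 25.5, 29.9, 26.4, 27.5 and 28.1 CPM in T24 and 17.5, 19.1, 19.9, 20.9 and 18.8 CPM in T24R2. It lies in the same window as RAB20 (110.5 Mb), which shows the range within 1 window: -4.42 for RAB20 and -0.52 for CARS2, with ING1, a chromatin reader of the inhibitor of growth family, at -1.79.

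Further out, LAMP1 (ENSG00000185896.11, 113297239 to 113323672), the main membrane glycoprotein of lysosomes, had 326, 337, 317, 310.0 and 307 CPM in T24 and 86.3, 87.7, 85.3, 83.0 and 79.1 CPM in T24R2, -1.92 ± 0.05 (SE). TFDP1, the dimerisation partner of E2F factors, had 164 to 200.4 CPM in T24 and 65.3 to 73.1 CPM in T24R2, -1.40 ± 0.05. CUL4A, the scaffold of an E3 ubiquitin ligase used in DNA damage repair, had 120 to 140 CPM in T24 and 51.2 to 56.9 CPM in T24R2, -1.24 ± 0.05. In these 3 genes every T24R2 library was below every T24 library by a wide margin. Such separation was frequent, with 36.4% of all windows lower in this way, and its share among genes is not given. GAS6, the ligand of the receptor kinases AXL, TYRO3 and MERTK, went from 164 ± 5.08 to 23.9 ± 1.42 CPM, -2.78 ± 0.06, and its antisense gene GAS6-AS1 had -2.85. ATP11A, a phospholipid flippase, had -2.66, RASA3, a GTPase-activating protein for RAS, -2.14, and CDC16, a subunit of the anaphase-promoting complex, -1.35. CHAMP1, the outermost tested gene (114314482 to 114337626), had 34.0, 36.9, 40.1, 31.5 and 33.5 CPM in T24 and 12.9, 14.7, 21.2, 19.3 and 19.3 CPM in T24R2, -1.01 ± 0.10.

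The middle segment of chromosome 13 was the nearest of the 3 to the rest of the genome, and the step into it at 41.5 Mb was small. The change was 0.41 in the pooled lines and 0.37 to 0.43 in the T24R2 libraries, but it was not found when the fit used squared deviations. Of the 143 tested genes of the middle segment, 23 were called higher (16.1%, against 24.9% of all tested genes), 36 lower (25.2%, against 26.5%) and 84 neither, with a median of -0.12. Its median was 0.01 without TMM. The values were widely scattered, with windows from -5.84 (ITGBL1, an integrin-like gene) to 4.38 (ENOX1, a cell-surface oxidase), and 53 of 83 windows were below 0. In the first segment, 46 of 95 tested genes were called lower and 6 higher, with a median of -0.54, and 44 of 52 windows were below 0. In T24R2 libraries the first segment had medians of -0.65 to -0.50 and the middle one -0.23 to -0.12.

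RB1 (ENSG00000139687.16, 48303744 to 48599436), which lies in the middle segment and restrains entry into S phase, had 102, 107, 122, 111 and 112 CPM in T24 and 97.0, 116, 117, 122 and 117 CPM in T24R2. The lines overlapped, and the log2 fold change was 0.04 ± 0.06 (SE). TPT1, a translationally controlled growth protein, had -0.21 ± 0.04 and was not called. RB1 and TPT1 thus differed little, while other genes of the segment differed in both directions. KLF5, a transcription factor of epithelial growth, had 152 to 200.4 CPM in T24 and 34.7 to 50.5 CPM in T24R2 (-2.05 ± 0.07), THSD1, a gene of endothelial adhesion, went from 34.5 ± 3.04 to 2.29 ± 0.65 CPM (-3.92 ± 0.14), and EFNB2, a membrane ligand of EPH receptors, rose from 40.0 ± 2.22 to 66.8 ± 1.44 CPM (0.74 ± 0.06). ENSG00000284966 overlaps EFNB2 on the opposite strand with 0.86, so the reads of both are uncertain if the strand was lost.

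In the first segment, RPL21, a ribosomal protein gene with many near-identical pseudogenes, had 652 to 723 CPM in T24 and 326 to 344 CPM in T24R2 (-1.02 ± 0.04). HMGB1, an abundant chromatin protein, had 549 to 601 CPM in T24 and 305 to 356 CPM in T24R2 (-0.81 ± 0.05). FOXO1 (40555667 to 40666641), a transcription factor held back by insulin signalling, had 43.2 to 47.6 CPM in T24 and 9.53 to 12.5 CPM in T24R2 (-2.04 ± 0.09), and CCNA1, a cyclin, had -2.20. RPL21, HMGB1 and FOXO1 had no overlap between the lines, and all were lower in T24R2. Over the genome 36.4% of windows were lower without overlap, and the share among genes is not given. HSPH1, a heat shock chaperone, went the other way, from 96.0 ± 8.36 to 168 ± 9.26 CPM (0.80 ± 0.05), and SLC7A1, a transporter of basic amino acids, was not called (0.05 ± 0.05).

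The genes of chromosome 13 were also counted by role, beside 26.5% lower and 24.9% higher among all tested genes, and the lists were not tested against each other. Of 16 genes of growth control and DNA repair, all tested, 10 were called lower, none higher (0) and 6 neither, with a median of -0.81. Their median was -0.90 for the 7 in the first segment, -0.14 for the 5 in the middle segment and -1.38 for the 4 in the distal segment, ING1, CUL4A, TFDP1 and CDC16. Of 18 genes of matrix, signalling and transcription, 11 were tested, of which 8 were lower, 1 higher (EFNB2) and 2 neither, with a median of -1.63. Of 15 genes of transport and metabolism, 4 were lower, none higher (0) and 11 neither, with a median of -0.23, a lower share close to that of all genes, and both members in the distal segment, ATP11A and LAMP1, were among the lower. The lists were picked by position and known role after results of these data were known, and describe only where their members lie.

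On chromosome 20 the search also gave 3 segments. The first, from 0.25 to 38.25 Mb with 89 windows, spans the short arm and the beginning of the long arm and had a median of -0.62, or 64.9% of T24. The second, from 38.25 to 51.25 Mb with 35 windows, had a median of 0.26, or 120% of T24. The third, from 51.25 to 64.5 Mb with 30 windows, had a median of -0.57, or 67.2% of T24. The information criterion was -110.6 for 3 segments, -105.5 for 4, -97.8 for 2 and -92.4 for 1. The rise at 38.25 Mb was 0.89 (0.84 to 0.90 in the T24R2 libraries) and the fall at 51.25 Mb was -0.84 (-0.93 to -0.80).

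**Figure D4:**
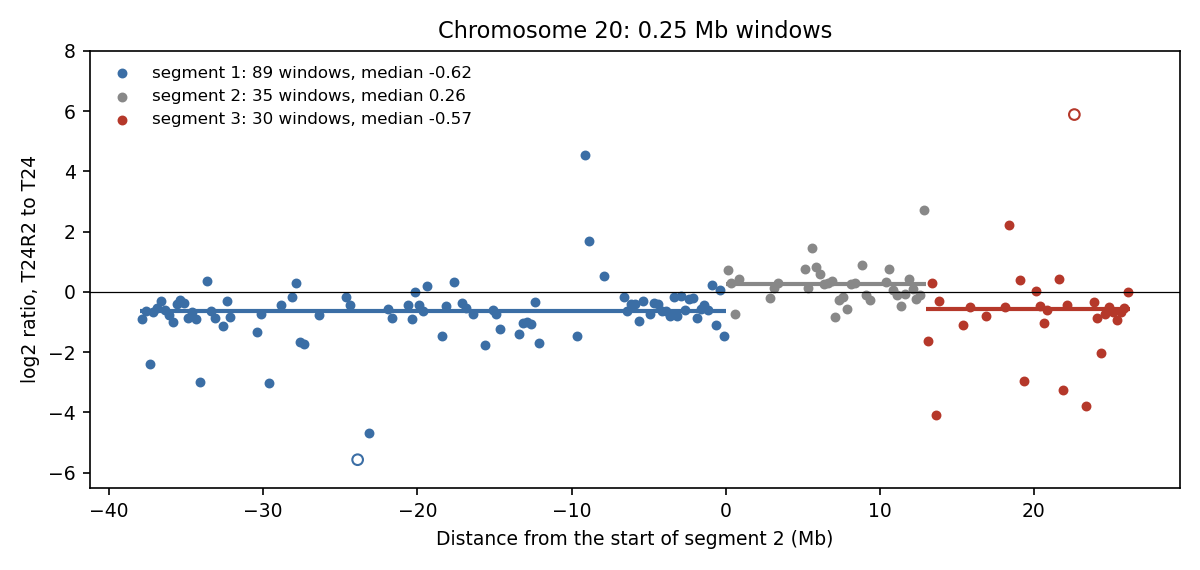
Log2 ratio of T24R2 to T24 in the 154 kept windows of chromosome 20 against the distance from the start of the second segment in Mb, with segment medians as lines and open circles for windows where 1 line was at or under 3 counts and was set to that floor. The second segment (grey) has its median at 0.26, between segments at -0.62 (blue) and -0.57 (red), and its points overlap those of both.

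These steps depended on how the windows were summarised. With least squares, with the median gene of each window in place of the sum, or without the gene with most counts in each window, neither of these steps was found on chromosome 20 and 1 step lay elsewhere, at 29, 29 and 31.75 Mb, and with windows of 1 Mb there were 6. The middle segment kept a positive median with the median gene (0.18) and without the top gene (0.10), but had -0.02 with windows of 0.5 Mb and -0.04 with windows of 1 Mb. Its summed level was nearly even, 7288 CPM in T24 and 7388 in T24R2 (log2 ratio 0.02), since some of its genes with most counts were lower. Of its 35 windows 22 were above 0. All T24R2 values lay above all T24 values in 18 (51.4%, against 34.8% of all windows) and below them in 8 (22.9%, against 36.4%).

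The segment medians were close between libraries. The segments were fitted to the means of these same libraries, and T24 was set against its own mean. This closeness is therefore no support for the steps. In the T24R2 libraries they were -0.66, -0.65, -0.57, -0.63 and -0.66 in the first segment, 0.22, 0.23, 0.27, 0.25 and 0.25 in the second and -0.59, -0.61, -0.67, -0.60 and -0.55 in the third. The T24 libraries were at -0.01 to 0.03 in all 3. No T24R2 library overlapped T24 in any segment, and the middle segment was the highest in each, while the order of the outer segments changed in replicate 3.

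**Figure D5:**
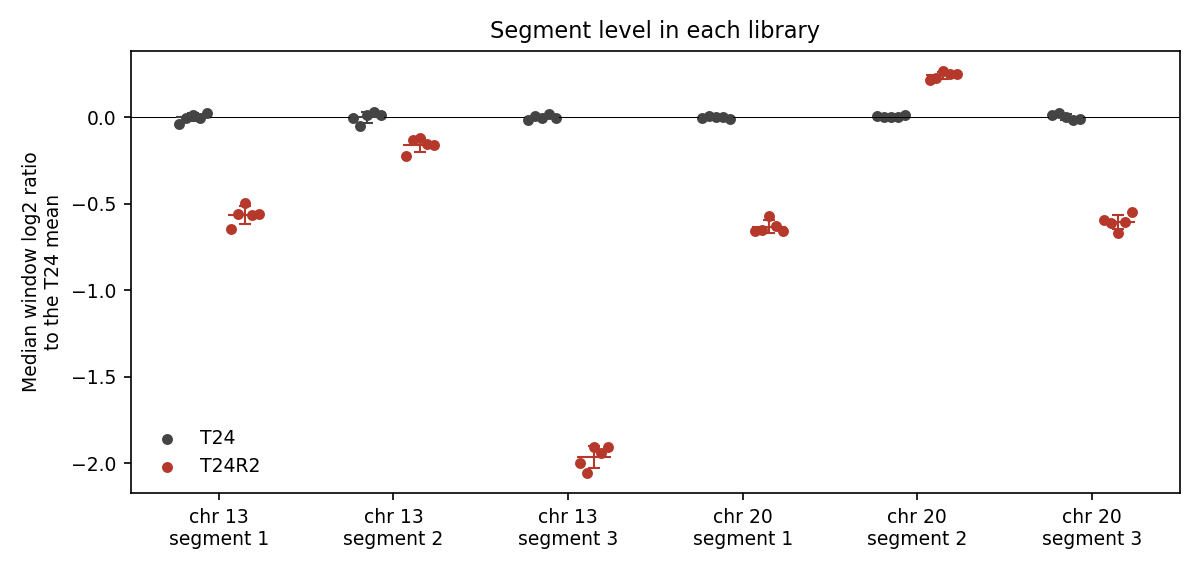
Median window log2 ratio to the T24 mean in each of the 6 segments, with 5 T24 (black) and 5 T24R2 (red) libraries as points and their mean and SD as lines. The distal segment of chromosome 13 is at -2.06 to -1.91 in T24R2, and the second segment of chromosome 20 is above 0, at 0.22 to 0.27, though not with windows of 0.5 or 1 Mb.

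Genes around the first step of chromosome 20 differed in sign. TGM2 (ENSG00000198959.12, 38127385 to 38166578), tissue transglutaminase, which crosslinks matrix proteins, had 1926, 1902, 1860, 2014 and 1875 CPM in T24 and 675, 610, 676, 606 and 631 CPM in T24R2, -1.58 ± 0.04 (SE). After the step, the noncoding host genes SNHG17 and SNHG11 had 0.62 and 1.03, and both were called higher. RALGAPB (ENSG00000170471.15, 38472816 to 38578859), a subunit of a RAL GTPase-activating complex, had 102, 110, 110, 112 and 113 CPM in T24 and 127, 128, 146, 134 and 138 CPM in T24R2. It did not overlap between the lines, but at 0.30 ± 0.05 it was not called. RPRD1B, a regulator of RNA polymerase II just before TGM2, had -0.34 and was not called. KIAA1755, the nearest tested gene before the step, had -4.55 from few counts, at 2.44 CPM in T24 and 0.095 CPM in T24R2. Farther out the signs were mixed on both sides, with SRC (0.47) and TTI1 (-0.50) before the step. After it FAM83D had -0.90 and DHX35 0.43. TGM2 gave 91.8% of the counts of its window (2043 ± 65.2 CPM in T24 and 734 ± 33.5 CPM in T24R2).

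In the first segment 126 of 235 tested genes were called lower and 16 higher, with a median of -0.57, beside the 26.5% and 24.9% of all genes. Of its 89 windows 80 were below 0, against 48.2% of the windows of the other chromosomes. In 71 of them all T24R2 values lay below all T24 values, which 36.4% of all windows showed. CDC25B, a phosphatase that starts mitosis, had 355 to 395 CPM in T24 and 164 to 184 CPM in T24R2 (-1.09 ± 0.04), TPX2, which activates Aurora A on the spindle, 437 to 493 and 270 to 325 CPM (-0.71 ± 0.05), and PYGB, brain-type glycogen phosphorylase, 533 to 565 and 275 to 284 CPM (-0.98 ± 0.04). All 3 had separate ranges in the lines. The share of all genes with separate ranges is not given here, and 51.4% of all tested genes were called in either direction. SMOX, spermine oxidase, went from 251.8 ± 11.1 to 30.3 ± 2.64 CPM (-3.06 ± 0.06), and GSS, glutathione synthetase, from 134 ± 6.90 to 73.1 ± 4.15 CPM (-0.87 ± 0.05). ACSS2, which makes acetyl-CoA from acetate and lies next to GSS, went the other way, from 34.6 ± 2.80 to 81.3 ± 6.8 CPM (1.23 ± 0.07).

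The windows with extreme ratios each drew most of their counts from 1 gene. On chromosome 13 they lay in the first and middle segments, with ratios of -4.19 for the window of DCLK1, a microtubule-associated kinase, -3.86 for TNFRSF19, a receptor of the tumour necrosis factor family, and -4.77 for SLAIN1, which promotes microtubule growth. The highest were 4.38 for ENOX1 and 3.97 for FRY, a large scaffold protein. On chromosome 20 the window of MACROD2, an ADP-ribose hydrolase, had -4.69 and that of CDH4, a cadherin of the nervous system, -3.78. ENSG00000276627 had 0 counts in every T24 library and up to 47 in a T24R2 library, at least 59-fold higher against a floor of 3 counts over the T24 libraries. FLRT3, an adhesion molecule, had up to 30 counts in a T24 library and 0 in every T24R2 library, and was at least 47.4-fold lower in T24R2, against a floor of 3 counts over the line. At the other end, FRG1DP and FRG1EP, near-identical pseudogenes next to the centromere, had 4.45 and 1.87, and their reads may be shared with other copies, so these values are uncertain.

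In the middle segment 19 of 98 tested genes were called higher (19.4%, against 24.9% of all tested genes), 22 lower (22.5%, against 26.5%) and 57 neither. YWHAB, a 14-3-3 adaptor protein, had 521 to 591 CPM in T24 and 691 to 768 CPM in T24R2 (0.41 ± 0.04) and was not called at the fold change required. TOX2, a transcription factor, had 52.1 to 62.9 and 144 to 163 CPM (1.46 ± 0.05), and SLPI, a secreted inhibitor of leukocyte proteases, 12.9 to 17.9 and 53.4 to 67.7 CPM (2.10 ± 0.09). Beside these higher genes, SDC4, a heparan sulfate proteoglycan, had 465 to 493 CPM in T24 and 148 to 168 CPM in T24R2 (-1.58 ± 0.04), and UBE2C, the ubiquitin-conjugating enzyme of the anaphase-promoting complex, 173 to 188 and 73.2 to 83.1 CPM (-1.18 ± 0.05). CSE1L, an exportin, and TOP1, topoisomerase I, were not called, at -0.11 and -0.24. The genes of the segment thus fell on both sides of 0.

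In the third segment 51 of 103 tested genes were called lower (49.5%, against 26.5% of all tested) and 10 higher (9.71%, against 24.9%). Another 42 were not called, and the median was -0.51. LAMA5 (62307955 to 62367312), a laminin chain of basement membranes, had 1451, 1494, 1566, 1505 and 1557 CPM in T24 and 603, 589, 641, 576 and 594 CPM in T24R2 (-1.33 ± 0.04). GNAS, the stimulatory G protein alpha subunit, had 1227 to 1308 CPM in T24 and 504 to 592 CPM in T24R2 (-1.25 ± 0.04), and AURKA, the Aurora A kinase, 216 to 234 and 92.7 to 105 CPM (-1.19 ± 0.05). None of the 3 overlapped between the lines. Of all windows, 36.4% were lower without overlap, and the share among genes is not given. SLC17A9, a vesicular nucleotide transporter, went from 128 ± 6.91 CPM to 0.146 ± 0.233 CPM, with no count in 3 of the T24R2 libraries. TFAP2C, a transcription factor of epithelium and trophoblast, was higher, from 7.11 ± 0.78 to 39.5 ± 2.45 CPM (2.47 ± 0.10). YTHDF1 (63195429 to 63216139), a reader of m6A in RNA, had 108 to 122 CPM in T24 and 78.5 to 82.8 CPM in T24R2, and at -0.51 ± 0.05 it was just past the fold change for a call, which it lost without T24 replicate 2 (-0.49), without T24R2 replicate 1 (-0.50) or 2 (-0.49), and with other scalings.

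Around the second step of chromosome 20 the nearest genes had few counts. KCNG1, a potassium channel subunit before the step, went from 0.924 ± 0.097 to 6.03 ± 0.47 CPM (2.69 ± 0.24). NFATC2, a calcium-regulated transcription factor after it, went from 3.50 ± 0.59 to 1.11 ± 0.16 CPM (-1.65 ± 0.27). ATP9A, a lipid flippase that follows, had 0.30 ± 0.05 and was not called, and SALL4, a stem cell transcription factor, had -4.08 ± 0.24. The sign did not change at 1 point but varied over these genes.

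The genes of chromosome 20 were counted by role in the same way, beside the same 26.5% lower and 24.9% higher among all tested genes. Of 16 genes of cell division and survival, all tested, 10 were lower, none higher (0) and 6 neither, with a median of -0.67. Of 19 genes of transcription and RNA, 17 were tested, of which 9 were lower, 2 higher (DNMT3B, a DNA methyltransferase, at 0.97 and CEBPB, a leucine zipper factor, at 0.79) and 6 neither. Of 22 genes of matrix, secretion and signalling, 17 were tested, of which 12 were lower, 1 higher (SLPI) and 4 neither, with a median of -1.33. In this list JAG1, a Notch ligand, had 183 to 225 CPM in T24 and 57.4 to 58.8 CPM in T24R2 (-1.86 ± 0.05), and PROCR, the protein C receptor, had -2.19. Of 13 metabolic genes, 12 were tested, of which 4 were lower, 1 higher (ACSS2) and 7 neither, with a median of -0.45. All 12 lie in the first segment.

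Neighbouring genes were also compared within windows. The segments were found from sums of these same genes, so the shares below only describe them and support nothing. In windows with at least 2 tested genes, all of them were below 0 in 17 of 24 windows of the first segment of chromosome 13, in 7 of 32 of the middle one and in 6 of 8 of the distal one. On chromosome 20 this held in 30 of 58, 2 of 25 and 6 of 19 windows, and all genes were above 0 in 6 of 25 windows of the middle segment. On the other chromosomes all genes were below 0 in 687 of 3329 windows (20.6%) and above 0 in 876 (26.3%), so that 6 of 25 above 0 in the middle segment of chromosome 20 was near the share elsewhere. The distal segment of chromosome 13 had a median of -1.29 for the 7 genes under 10 CPM in T24, 4 of them below 0. It had -1.90 for the 19 between 10 and 100 CPM and -2.09 for the 8 above, all of them below 0. In the first segment of chromosome 20, the medians were -0.30, -0.50 and -0.71 at these levels, and in the third -0.17, -0.40 and -0.71. The middle segment of chromosome 20 had -0.07, 0.23 and -0.11. Every level was set by T24, the line that the ratio is taken against, so genes high in T24 lean towards lower ratios. A dependence on the level of expression therefore cannot be read from these medians, and was not tested.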

How the data were processed

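RNA-seq libraries of T24 and T24R2 (5 replicates each, day 3) were used. Alignment by the authors was to hg38 in STAR 2.7.0. Multiply mapped and duplicate reads were dropped in samtools 1.10, and GENCODE 39 genes were counted in featureCounts 2.0.1 under strand option 1. The kit is not described as strand-specific. The deposited tables hold raw, unnormalised fragment counts for 61533 genes, of which 61415 had a symbol, and 0 rows without a gene name. Total counts were 9257843 to 10840954 per library, which with a floor of 3 counts sets the precision for low genes and windows and covers counting error only. The 20 pairs of libraries within a line differed by more than sampling noise, with a chi-square of 2.01 to 7.20 for each degree of freedom.

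Window sums were scaled with the TMM factors of edgeR 4.0.16 in R 4.3.3 (0.936 to 0.951 in T24, 1.04 to 1.07 in T24R2) and given as CPM. A line with 3 counts or fewer over its libraries in a window was set to that floor. Steps were sought by dynamic programming with 1 to 8 segments. Genes were tested with filterByExpr, glmQLFit and glmQLFTest and Benjamini-Hochberg adjustment, with a biological coefficient of variation of 6.61%. DESeq2 1.42.0, limma-voom (limma 3.58.1), other scalings, filters, window sizes, counts minimums, step settings, a block for the replicate number and leaving out each library were alternatives; the counts in the distal segment of chromosome 13 were added to them after its values were seen. Both procedures were tested on simulated data. Other steps used Python 3.11.15, numpy 2.4.6, pandas 2.3.3 and matplotlib 3.10.9.

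The chromosomes, windows and gene lists were chosen with earlier results of these data known. The rule for named genes took the 3 nearest tested genes on each side of a step, the 2 with the highest mean CPM in a segment, the 6 largest rises and falls on a chromosome where the mean reached 10 CPM, the 3 with the highest mean CPM and 2 with the largest change in each list, YTHDF1, and the top gene of the 5 highest and 5 lowest windows. Other genes of the distal segment, the genes of the gap before it, KLF5, SDC4, JAG1, PROCR, DNMT3B and CEBPB were named after their values were seen. SRC, TTI1, FAM83D and DHX35, around the first step of chromosome 20, were also named outside the rule.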

Additional observations from a re-analysis of the deposited data

Results flagged for a closer look

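A library lay far from the other 4 of its line in 10 of 202 groups compared, where chance alone gives about 10.1. The values are CPM. In T24, FOXO1 had 47.64 in replicate 1 and 43.2 to 44.4 in the others, LINC03061 had 101.4 in replicate 1 and 91.8 to 93.4 in the others, COL4A2 had 939.5 in replicate 3 and 1000 to 1012 in the others, and GSS had 121.8 in replicate 4 and 135.2 to 138.7 in the others. RALGAPB had 101.5 in T24 replicate 1 and 110 to 113 in the others, and WFDC2 had 3.321 in T24 replicate 1 and 1.47 to 1.84 in the others. In T24R2, TPT1 had 1859 in replicate 3 and 1788 to 1807 in the others, RB1 had 96.98 in replicate 1 and 116 to 122 in the others, FER1L4 had 13.21 in replicate 1 and 10.3 to 11.0 in the others, and UBE2C had 73.16 in replicate 5 and 81.5 to 83.1 in the others. None of the segment medians was among them.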

How the results depend on the processing

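The distal step of chromosome 13 kept its place at 109.25 Mb except without the top gene of each window (110.25 Mb) and with windows of 0.5 Mb (109 Mb), and with 1 Mb windows the largest step of the chromosome lay elsewhere, at 73 Mb. The segment it begins stayed between -2.04 and -1.81, with 30 or 31 genes called lower, except 24 with a mean of at least 100 counts and 28 without genes overlapped from the opposite strand. The causes of the changes below were not tested. Segments are named 13-1 to 13-3 and 20-1 to 20-3 in order of position.

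Without scaling beyond the total count, the chromosome medians were -0.2475 (13) and -0.3025 (20), with 61.33% and 70.78% of windows below 0. Segments 13-1, 13-2 and 13-3 had -0.4002, 0.01477 (reversed) and -1.811, segments 20-1, 20-2 and 20-3 had -0.4606, 0.4274 and -0.4102, and 69 genes of chromosome 20 were called higher. With upper-quartile factors these medians were -0.3363 and -0.3911 with 71.33% and 74.68% below 0, and -0.4886, -0.07416, -1.9, -0.5492, 0.3385 and -0.499 in the 6 segments. With the median gene of each window, chromosome 20 had a median of -0.4417, the shares were 70.95% and 74.68%, the largest steps 1.915 and 0.5368, with 1 step on chromosome 20, and segments 13-3, 20-1, 20-2 and 20-3 had -2.039, -0.5737, 0.1772 and -0.5124. Without the top gene of each window the chromosome medians were -0.3487 and -0.3568, the share on chromosome 20 72.38%, with 1 step of 0.5542, and segments 13-1, 13-2, 20-2 and 20-3 had -0.4287, -0.1043, 0.105 and -0.43.

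With a minimum of 1000 counts chromosome 13 had -0.4822, with shares of 80.17% and 77.61%. Without a minimum the medians were -0.338 and -0.4393, the shares 72.19% and 73.41%, and segments 13-1 and 20-3 had -0.4954 and -0.5102. With 0.5 Mb windows the shares were 77.14% and 77.55%, chromosome 20 had -0.5159, the largest steps were 1.637 and 0.8175, segments 13-1 to 13-3 had -0.6231, -0.2563 and -1.889, and segment 20-2 was reversed at -0.01937. With 1 Mb windows there were 4 and 6 steps, the largest 1.696 and 4.344, chromosome 20 had -0.5429 with 86.89% below 0, segments 13-1 to 13-3 had -0.4869, -0.2248 and -1.881, and segments 20-1 to 20-3 had -0.6698, -0.0366 (reversed) and -0.7824. Least squares gave 1 step on each chromosome, of 1.738 and 0.7645. With a mean of at least 100 counts, 13 and 28 genes were called higher on chromosomes 13 and 20, and 2350 higher and 2641 lower over the genome. With no filter, 54 and 71 were called higher.

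Leaving out 1 library moved the chromosome medians between -0.4406 and -0.3755 (13) and between -0.4824 and -0.4652 (20), the share on chromosome 20 between 74.68% and 75.97%, its largest step between 0.8578 and 0.8965 and segment 20-2 between 0.2315 and 0.2701. The replicate numbers did not pair the samples, with correlations of same-numbered deviations of -0.021 to 0.0155 and 1 of 5 numbers best matched by its own. With a replicate block 113 genes were lower and 31 higher on chromosome 13, 197 and 45 on chromosome 20, and segment 13-3 had -1.976. Of the alternative values of named genes, 1658 kept their side of the threshold, 8 lost and 8 gained a call, and 0 reversed. LIG4 passed the fold threshold without T24 replicate 3 or T24R2 replicate 1. Depth limits windows near the minimum of 100 counts most.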
